A study of Mus musculus with 57 samples.

Results

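The genes that write, keep and remove DNA methylation were followed through retinoic acid (RA) differentiation of mouse embryonic stem cells (ESCs). They are 8 of the 55450 genes in the table: the maintenance methyltransferase Dnmt1 and its partner Uhrf1, the de novo methyltransferases Dnmt3a and Dnmt3b with their cofactor Dnmt3l, and the dioxygenases Tet1, Tet2 and Tet3. They were taken as a list of gene names, found in the table by Ensembl identifier in GENCODE M21, and all 8 passed the filter on low counts in every comparison.

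RNA was sequenced in bulk from 57 libraries of 19 conditions, with 3 biological replicates each, of a Sox1-EGFP/FoxA2mCherry ESC line that is a single clone. EGFP replaces 1 allele of Sox1, a neural gene, and mCherry is joined to FoxA2, an endodermal gene, so every cell of every group carries both reporters. Sorted cells gave 39 libraries. At day 0 (D0), in serum with LIF, they were Sox1-FoxA2- cells. At D2, D4 and D6, in N2B27 medium with 1 uM RA, they were Sox1-FoxA2- cells, the single-positive Sox1+FoxA2- and Sox1-FoxA2+ cells, and cells positive for both (Sox1+FoxA2+). Progeny gave 18 libraries: the 3 populations positive for a reporter were sorted at D2, replated in RA with a serum basal medium and taken 2 or 4 days later, at D4 and D6. Per the study's methods progeny were counted by hand and not sorted again at harvest, so a progeny name gives the reporters of the D2 parents. Replating, medium and the absence of a second sort therefore cannot be told apart where progeny are set against sorted cells. Libraries held between 10170632 and 81845651 counts.

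In mammals, DNA methylation lies mainly on the cytosine of CG pairs. Dnmt3a and Dnmt3b place it on unmethylated DNA, Dnmt3l, which has no catalytic activity of its own, stimulates both, and after replication Uhrf1 recognises half-methylated CG pairs and recruits Dnmt1 to copy the mark. Tet enzymes oxidise methylcytosine to hydroxymethylcytosine and further, after which the base is diluted by replication or replaced by repair. ESCs are known for high Tet1 and Tet2, for Dnmt3l, and for global methylation that is low in the naive state and rises when cells leave it together with Dnmt3b. No methylation was measured here: every value below is an RNA level.

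The maintenance genes are Dnmt1 (ENSMUSG00000004099.16, chromosome 9, 20907209 to 20959888, minus strand) and Uhrf1 (ENSMUSG00000001228.14, chromosome 17, 56303321 to 56323486, plus strand). The de novo genes are Dnmt3a (ENSMUSG00000020661.15, chromosome 12, 3806007 to 3914443, plus strand), Dnmt3b (ENSMUSG00000027478.15, chromosome 2, 153649450 to 153687730, plus strand) and Dnmt3l (ENSMUSG00000000730.13, chromosome 10, 78041947 to 78063622, plus strand). The oxidising genes all lie on the minus strand: Tet1 (ENSMUSG00000047146.17, chromosome 10, 62804570 to 62908996), Tet2 (ENSMUSG00000040943.12, chromosome 3, 133463679 to 133545139) and Tet3 (ENSMUSG00000034832.15, chromosome 6, 83362373 to 83459084). Positions are those of GRCm38. The counts cover whole gene spans without regard to strand: 206 of 206 protein-coding genes that lie wholly in introns of a gene on the same strand, and 476 of 478 that do so on the opposite strand, had 0 counts in every library, against 336 of 14067 genes with no exon base inside another gene. Reads from introns can therefore be counted, and reads where 2 genes overlap are not. Of the exon bases, 9.47% of Dnmt3l, 5.70% of Dnmt3b, 1.74% of Dnmt3a and 0.255% of Tet2 lie inside another gene, and none of the other 4 genes.

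The promoter windows of 4 members are shown: the maintenance genes because each holds a word known from S-phase promoters, and Dnmt3b and Dnmt3l because they differ in CG content. The windows are those of RefSeq (GRCm38.p6), from 250 bases before to 50 bases after an annotated start. All 8 members had at least 1, with 15 windows in all. The words TTTGGCGC and TTCCCGCC, of the type bound by E2F factors that switch on S-phase genes, were searched on both strands. They are different words, and 879 windows (2.68%) held either. TTTGGCGC occurred in 169 of 32851 windows of the genome (0.51%) and TTCCCGCC in 720 (2.19%). Among members the first was found once, in Dnmt1, and the second once, in Uhrf1. The Dnmt1 word lies near the end of its window, after the annotated start. That window lies inside the gene span, downstream of the outermost start at 20959888, so it belongs to an internal annotated start. Binding to either word was not measured. These windows are printed 5′ to 3′ on the strand of the gene, with the word in capitals where it reads on that strand.

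Dnmt1, chr9:20952574-20952873, minus strand: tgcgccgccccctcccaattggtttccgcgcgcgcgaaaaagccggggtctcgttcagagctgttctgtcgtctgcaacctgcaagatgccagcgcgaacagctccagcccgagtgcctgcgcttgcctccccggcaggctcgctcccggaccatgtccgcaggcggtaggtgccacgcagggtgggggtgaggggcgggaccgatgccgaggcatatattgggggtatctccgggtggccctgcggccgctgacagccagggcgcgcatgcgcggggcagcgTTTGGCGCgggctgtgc
Uhrf1, chr17:56303087-56303386, plus strand: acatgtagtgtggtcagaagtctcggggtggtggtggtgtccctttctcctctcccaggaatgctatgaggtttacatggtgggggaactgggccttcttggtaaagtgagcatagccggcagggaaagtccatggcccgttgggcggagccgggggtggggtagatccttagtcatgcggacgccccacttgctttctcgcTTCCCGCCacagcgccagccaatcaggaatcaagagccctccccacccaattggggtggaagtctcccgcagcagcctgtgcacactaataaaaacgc

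The windows of Dnmt3b and of its cofactor Dnmt3l differ in their CG pairs, which are in capitals: the Dnmt3b window holds 30, and the first of the 3 Dnmt3l windows 6, against a median of 7 over all windows. The other members' richest windows hold 33 (Dnmt1 and Uhrf1), 47 (Dnmt3a), 17 (Tet1), 57 (Tet2) and 22 (Tet3) CG pairs. The Dnmt3l value is that of its first window, and its other windows are not given here.

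Dnmt3b, chr2:153649199-153649498, plus strand: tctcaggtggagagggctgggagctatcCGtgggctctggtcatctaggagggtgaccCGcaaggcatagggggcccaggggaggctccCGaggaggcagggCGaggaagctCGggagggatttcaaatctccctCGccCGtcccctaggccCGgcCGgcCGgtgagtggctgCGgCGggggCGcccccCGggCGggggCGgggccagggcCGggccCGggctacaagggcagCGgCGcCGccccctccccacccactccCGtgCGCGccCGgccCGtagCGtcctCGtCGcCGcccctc
Dnmt3l, chr10:78042037-78042336, plus strand: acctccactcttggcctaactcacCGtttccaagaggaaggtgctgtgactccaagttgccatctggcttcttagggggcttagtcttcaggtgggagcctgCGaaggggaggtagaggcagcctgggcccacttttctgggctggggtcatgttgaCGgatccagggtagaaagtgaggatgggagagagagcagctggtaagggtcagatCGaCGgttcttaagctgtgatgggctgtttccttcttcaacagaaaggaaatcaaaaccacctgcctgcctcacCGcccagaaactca

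Levels are normalized counts, that is, counts divided by a library's DESeq2 size factor. They are compared between conditions for 1 gene, and between genes only per kilobase of exon, a length that leaves out introns although their reads may be counted. In bulk libraries, fewer cells that express a gene and less of its RNA per cell cannot be told apart.

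**Figure D1:**
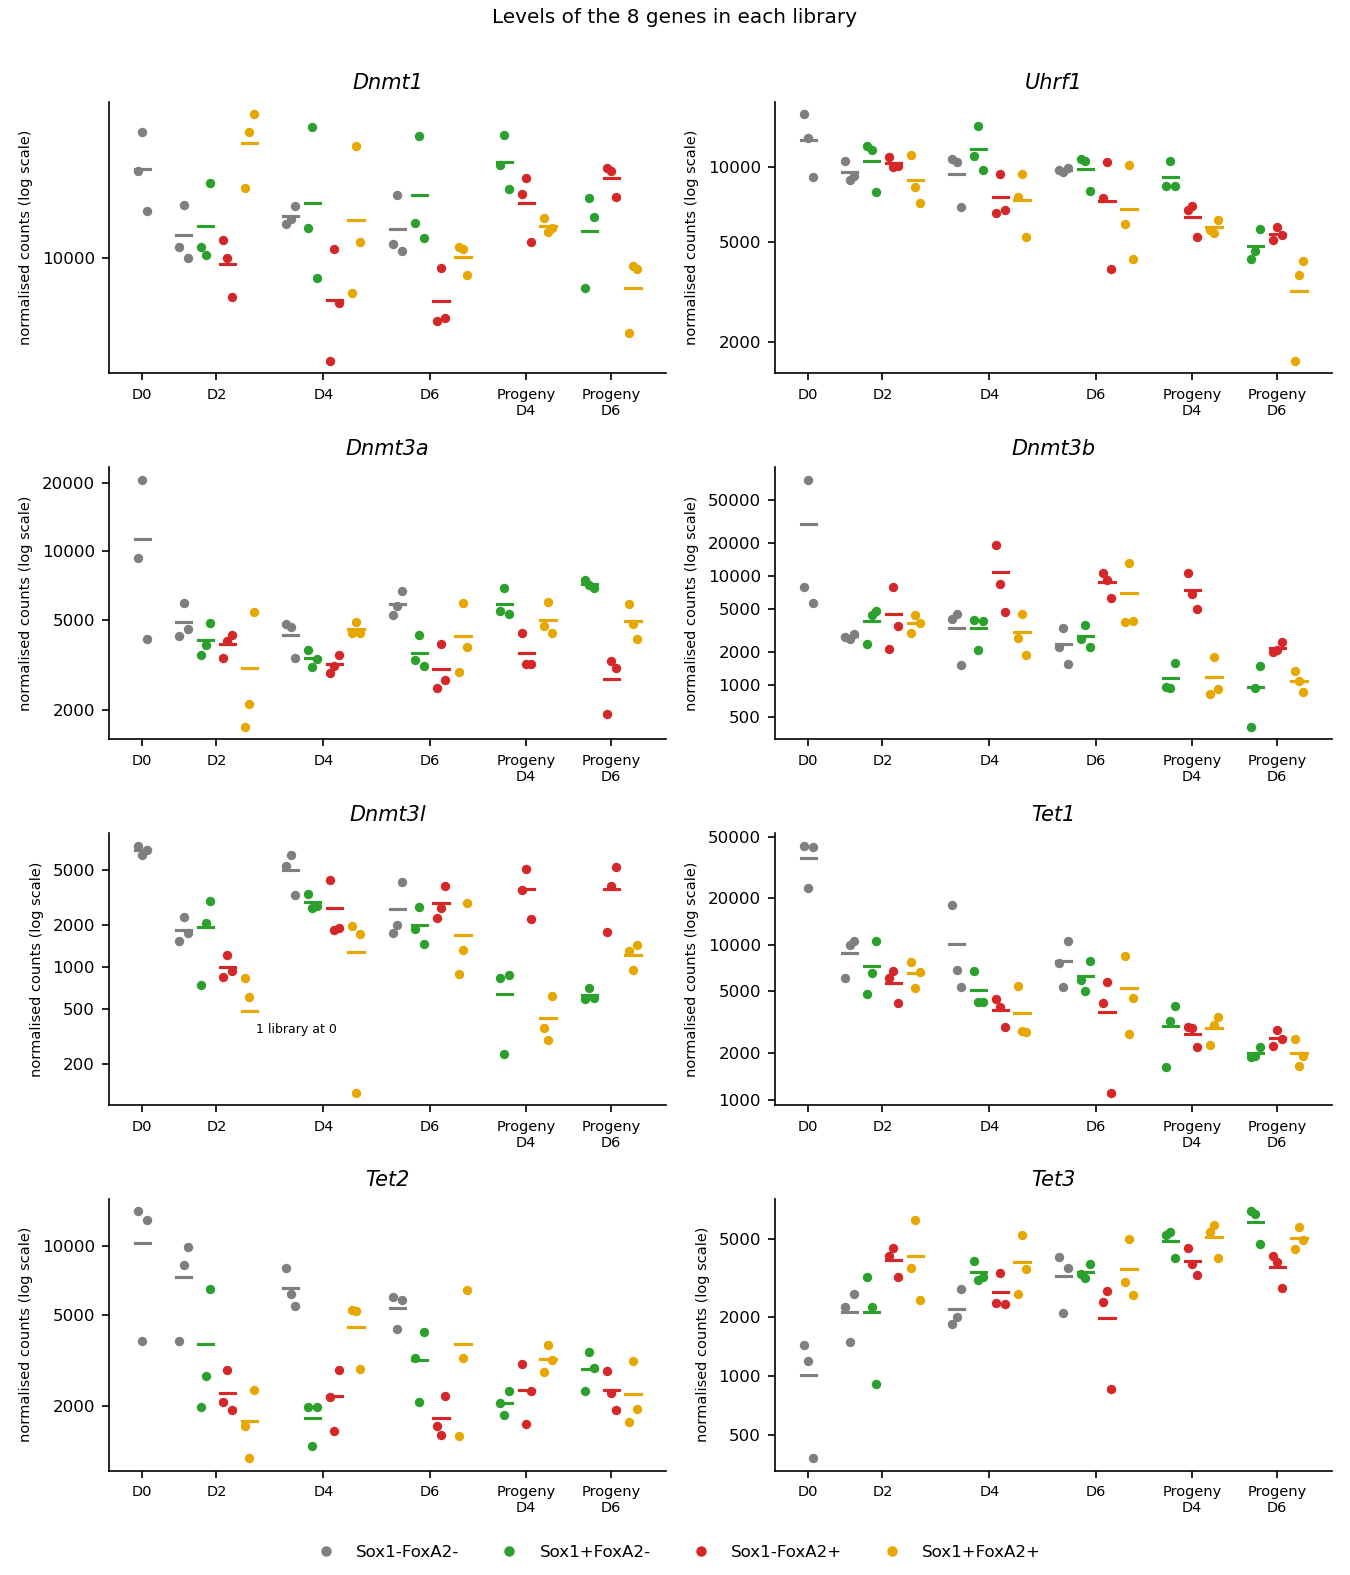
Normalized counts (log axis) of the 8 genes in each of the 57 libraries, by day and arm, with the 4 populations in colour. Points are libraries and bars are means of 3. Tet1 is highest at D0, the mean of Tet3 is lowest there, and Dnmt3b libraries of Sox1-FoxA2+ cells lie above those of Sox1+FoxA2- cells at D4 and D6 in both arms.

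Per kilobase of exon, Uhrf1 had the highest mean of the 8 genes in 10 of 19 conditions, Dnmt1 in 6 and Dnmt3b in 3. The conditions led by Dnmt3b were D0 and the Sox1-FoxA2+ cells sorted at D4 and D6. At D0 the means were 5909.6 ± 7922 normalized counts per kilobase for Dnmt3b, 3012 ± 841 for Uhrf1, 2364 ± 751 for Tet1 and 60.5 ± 33.5 for Tet3 (SD, n = 3). The SD of Dnmt3b exceeded its mean there. Per kilobase of the whole gene span, Uhrf1 led in 17 conditions, Dnmt1 in 1 and Dnmt3b in 1, so the order between genes depends on the length used.

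The order of the 19 condition means was mostly not resolved by the spread between replicates. Neighbours in that order were counted as separate where no library of one reached the range of the other. For Dnmt1, from 15648 normalized counts in D2 Sox1+FoxA2+ cells to 8462 in D6 Sox1-FoxA2+ cells, 0 of 18 neighbouring pairs were separate. For Tet1, from 36546 at D0 to 2001 in D6 Sox1+FoxA2+ progeny, 2 pairs were separate, and D0 stood apart from the next condition. Uhrf1 ran from 12826 at D0 to 3192 in D6 Sox1+FoxA2+ progeny, Dnmt3a from 11339 at D0 to 2748 in D6 Sox1-FoxA2+ progeny, and Dnmt3b from 30175 at D0 to 950.1 in D6 Sox1+FoxA2- progeny. Each of these had 1 separate pair. Dnmt3l ran from 6947 at D0 to 429.8 in D4 Sox1+FoxA2+ progeny, Tet2 from 10363 at D0 to 1727 in D2 Sox1+FoxA2+ cells, and Tet3 from 6139.5 in D6 Sox1+FoxA2- progeny down to 1009.9 at D0, with 0 separate pairs each.

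Some libraries stood apart or went against a marker. D0 replicate 2 had a summed level of ESC markers of 21745 normalized counts, against 56684 and 54822 in replicates 1 and 3. Its sum over formative genes other than Dnmt3b was also high, at 22906 against 2143 and 2588. Among D2 Sox1+FoxA2- libraries, replicate 3 had an ESC marker sum of 19930 against 2167 and 4081. Results that rest on D0 replicate 2 are given with and without it below. The D2 library is named below where it holds the lowest value, and the difference within D2 is not given without it. Sox1, which defines groups here, and Sox2, an ESC marker, each lie wholly inside another gene and had 0 counts in every library, so Sox1 could not check the labels. Foxa2, the other defining gene, had between 1478 and 3241 normalized counts in sorted Sox1-FoxA2+ libraries and between 0 and 324 in sorted FoxA2- libraries. In D6 Sox1+FoxA2+ libraries it had 0, 728 and 76.6, which overlapped the 131, 124 and 20.3 of D6 Sox1+FoxA2- cells (log2 difference 1.63, adjusted p = 1.00). Replicate 1 of the libraries labelled D6 Sox1+FoxA2+ thus went against its label in this gene. Without it, 0 of the 8 genes passed the test in both comparisons of that group, as with it. Yolk-sac endoderm genes (Gata4, Gata6, Sox17, Foxa2, Lama1 and Dab2) summed to between 184319 and 701445 in Sox1-FoxA2+ cells at D4 and D6, and to between 3007 and 6089 in Sox1+FoxA2- cells of those days. Lama1 made up most of the sum in Sox1-FoxA2+ cells, with a mean of 392951 at D6 against 48359 for Dab2, the next highest.

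The first comparison asks which enzymes differ when ESCs leave serum with LIF for RA. From D0 to D2, over the 4 populations of D2, 6 of the 8 genes changed, against 4.57% of all 28237 genes tested. The 3 de novo genes and Tet1 and Tet2 fell, Tet3 rose, and the maintenance pair Dnmt1 and Uhrf1 did not pass the test. The median log2 fold change was -1.62 over the 8 genes and 0.18 over all genes tested.

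Tet1, the main oxidising enzyme of ESCs, had 43751, 23151 and 42736 normalized counts in the D0 libraries. At D2 its 12 libraries had a lowest value of 4232, a median of 6632 and a highest of 10619. No D2 library reached the lowest D0 library. The fall was 5.12-fold (log2 fold change -2.36, SE 0.335, adjusted p = 5.29e-05; edgeR quasi-likelihood test with Benjamini-Hochberg adjustment, as in all comparisons below).

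Tet2, which lacks the DNA-binding CXXC domain of Tet1 and Tet3, had 14227, 3847 and 13014 normalized counts at D0. D2 libraries had a lowest value of 1183, a median of 2533 and a highest of 9973. The groups overlapped, because D0 replicate 2 was below several D2 libraries. Tet2 fell all the same (log2 fold change -1.66, SE 0.308, adjusted p = 4.98e-04).

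Tet3, the enzyme of the zygote and of neural cells, had 1448, 1201 and 380.3 normalized counts at D0. At D2 it had a lowest value of 907, a median of 2908 and a highest of 6310.1. The lowest D2 value was that of the Sox1+FoxA2- library with high ESC markers, and it lay inside the D0 range. Tet3 rose (log2 fold change 1.52, SE 0.403, adjusted p = 0.0190), but the call was lost without D0 replicate 3, at 1.12 on the log2 scale (adjusted p = 0.193). It held in the remaining 38 of 39 fits with 1 library left out, the fit without that Sox1+FoxA2- library included.

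Dnmt3l had 7484, 6351 and 7005 normalized counts at D0 and a lowest value of 0, a median of 1089 and a highest of 2986 at D2. All D0 libraries were above all D2 libraries. The value of 0 was the count in Sox1+FoxA2+ replicate 3, a library of 25237064 counts, where 3 counts would be 4.09 normalized counts. Dnmt3l fell (log2 fold change -2.56, SE 0.641, adjusted p = 0.0207). The call was lost without any 1 of the 3 D0 libraries, with adjusted p up to 0.0745.

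Dnmt3b, the de novo enzyme of the early epiblast, had 7952, 76866 and 5705 normalized counts at D0, and Dnmt3a, which also acts in later tissues, had 9356, 20565 and 4097. At D2 Dnmt3b had a lowest value of 2141, a median of 3210.4 and a highest of 7944, and Dnmt3a had a lowest value of 1687, a median of 4124 and a highest of 5906. Replicate 2, the D0 library with high formative genes, was far above all others for both, and the groups overlapped for both. With all libraries both genes fell (Dnmt3b: log2 fold change -3.08, SE 0.510, adjusted p = 5.93e-04; Dnmt3a: log2 fold change -1.57, SE 0.276, adjusted p = 2.17e-04). Without D0 replicate 2 neither passed the test: the log2 fold change was -0.85 for Dnmt3b (adjusted p = 0.482) and -0.75 for Dnmt3a (adjusted p = 0.220).

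For the maintenance genes D0 and D2 overlapped. Dnmt1 had 14048, 16315 and 12028 normalized counts at D0 and a lowest value of 8587, a median of 10591 and a highest of 17501 at D2. Its log2 fold change was -0.27 (95% interval -0.71 to 0.17, adjusted p = 0.657). That of Uhrf1 was -0.39 (95% interval -0.92 to 0.14, adjusted p = 0.528).

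The D2 mean pools 4 populations, while D0 holds Sox1-FoxA2- cells alone. Between D0 and D2 Sox1-FoxA2- cells only, 0 of 8 genes passed the test: the log2 fold change was -3.47 for Dnmt3b (adjusted p = 0.0505), -2.01 for Tet1 (adjusted p = 0.0559) and -0.45 for Tet2 (adjusted p = 0.785). The share of all genes called in this smaller comparison is not given here, so its count is not a result about these 8 genes. In D2 Sox1-FoxA2- cells Tet2 had 3837, 8275 and 9973 normalized counts, and their ESC marker sums were 7705, 23932 and 23471, the lowest in the same library as Tet2.

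**Figure D2:**
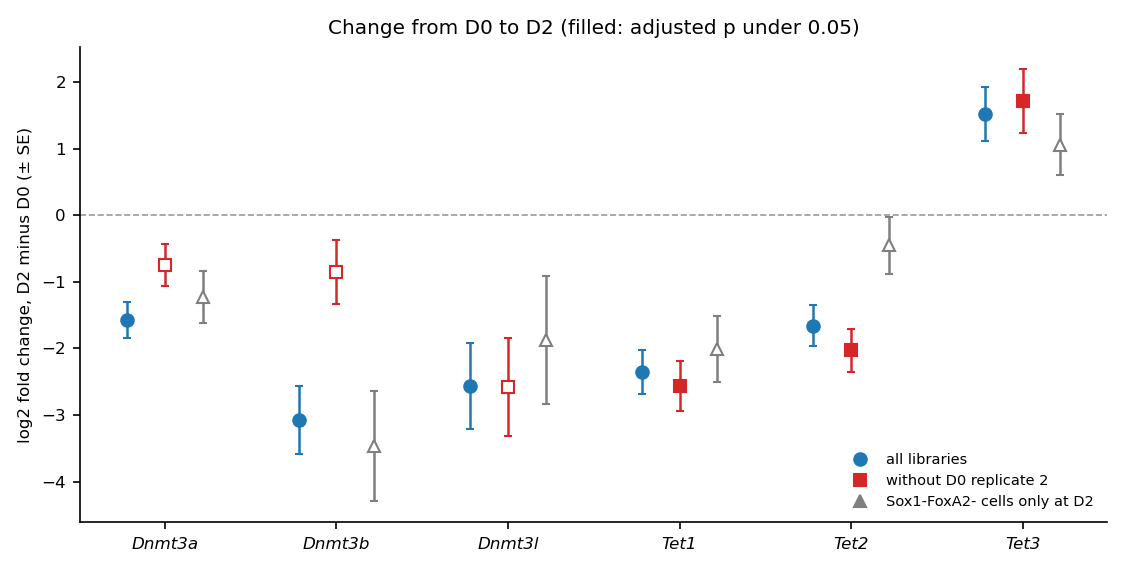
Log2 fold change from D0 to D2, with its SE, of the 6 genes that passed the test, for all libraries, without D0 replicate 2, and for Sox1-FoxA2- cells only. Filled symbols passed the test. Tet1, Tet2 and Tet3 stay filled without D0 replicate 2, Dnmt3b moves from -3.08 to -0.85, and no gene is filled in Sox1-FoxA2- cells only.

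As a share of the summed Tet counts per kilobase, Tet1 made up 78.8% ± 4.13 (SD, n = 3) at D0 and between 43.3% and 61.7% in D2 libraries. No library overlapped. The mean difference of -25.8 percentage points gave p = 0.00440 (exact permutation test, two-sided) over 3 and 12 libraries, and 0.0528 after adjustment over the 12 share comparisons made. The 12 D2 libraries are 4 populations with 3 replicates each, permuted as if independent. This p therefore also takes in differences between populations. Tet3 made up 2.32% ± 1.68 at D0.

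From D2 to D6 in RA, over the 4 populations, 0 of 8 genes passed the test, against 10.1% of all genes. An unadjusted p under 0.05 was found for 6869 of all 28237 genes tested. Among the 8 there were 3: Dnmt1 (log2 fold change -0.38, SE 0.142, adjusted p = 0.0772), Uhrf1 (log2 fold change -0.44, SE 0.173, adjusted p = 0.0891) and Tet1 (log2 fold change -0.58, SE 0.241, adjusted p = 0.122). All 3 had lower means at D6, and the libraries overlapped for each. With the replicate block Dnmt1 and Uhrf1 passed the test (adjusted p = 0.0195 and 0.0161), and with no filter on low counts Tet1 did (adjusted p = 0.0339) with Dnmt3l. With DESeq2 size factors in place of TMM, which shift all values here by 0.21, the log2 fold change was -0.16 for Dnmt1 (adjusted p = 0.488) and -0.25 for Uhrf1 (adjusted p = 0.331). The median over all genes tested was 0.35.

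The next comparison asks whether the 2 lineages marked by the reporters differ in these enzymes. In sorted cells, Sox1-FoxA2+ minus Sox1+FoxA2- gave 0 of 8 calls at D2 (0.00491% of all genes), D4 (0.266%) and D6 (1.32%). At each of these days 1 of the 8 had an unadjusted p under 0.05: Tet3 at D2 and Dnmt3b at D4 and D6. Over all genes tested, 1031 of 20369 had one at D2, 1250 of 22946 at D4 and 3255 of 24203 at D6. At D6 the share among the 8 was thus near that of all genes.

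At D2, Tet3 had 4106, 4525 and 3196 normalized counts in Sox1-FoxA2+ cells and 3229, 2253 and 907 in Sox1+FoxA2- cells. The ranges overlapped by 1 library, and the lowest Sox1+FoxA2- value was again the library with high ESC markers. The log2 difference was 0.92 (SE 0.403, adjusted p = 0.915).

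Dnmt3b had 19269.6, 8485 and 4644 normalized counts in D4 Sox1-FoxA2+ cells and 3915, 2083 and 3885 in D4 Sox1+FoxA2- cells. The groups did not overlap. The log2 difference of 1.78 (SE 0.509) had an adjusted p of 0.276. At D6 the values were 10625, 9264 and 6337 against 2607, 3524 and 2216, again with no overlap, and the log2 difference was 1.85 (SE 0.507, adjusted p = 0.0717). Replicate numbers paired the libraries of these groups at D4 and D6, and with the replicate block the D6 difference passed the test at 1.86 (adjusted p = 0.00307). It also passed in 6 of the 12 fits that each left out 1 D6 library (adjusted p from 0.00234 to 0.0402): any 1 of the Sox1+FoxA2+ libraries, which enter the shared estimate of spread, Sox1-FoxA2- replicate 2 or 3, or Sox1-FoxA2+ replicate 3. The block took all calls from 61 to 144 at D4 and from 319 to 517 at D6.

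Dnmt3l, the cofactor of Dnmt3b, did not pass the test in sorted cells. At D6 it had 2262, 2644 and 3815 normalized counts in Sox1-FoxA2+ cells and 1889, 2696 and 1476 in Sox1+FoxA2- cells, with overlapping ranges (log2 fold change 0.65, SE 0.495, adjusted p = 0.633). For Dnmt3a the log2 difference at D6 was -0.06, with a 95% interval (-0.91 to 0.79) that leaves room for a difference either way. The maintenance genes had lower means in Sox1-FoxA2+ cells at D6 without passing the test (Dnmt1 -0.43, adjusted p = 0.680; Uhrf1 -0.21, adjusted p = 0.933). The median of all genes in this comparison was -0.30.

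The change from D2 to D6 was compared directly between the 2 populations. None of the 8 passed the test of that difference, against 0.103% of all genes. An unadjusted p under 0.05 was found for 2364 of all 28237 genes tested and for 1 of the 8. This was Tet3, with a difference of -1.44 on the log2 scale, Sox1-FoxA2+ minus Sox1+FoxA2- (SE 0.648, adjusted p = 0.561). At D6 Tet3 had 2382, 2738 and 862 normalized counts in Sox1-FoxA2+ cells and 3320.0, 3161 and 3753 in Sox1+FoxA2- cells, the reverse of the order at D2.

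Sox1+FoxA2+ cells express both reporters. At D6 they differed in 0 of 8 genes from Sox1+FoxA2- cells (0.0496% of all genes) and in 0 of 8 from Sox1-FoxA2+ cells (0.0909%). These comparisons share the D6 Sox1+FoxA2+ libraries with each other and the remaining libraries with the comparison above. Dnmt3b had 3755, 13165 and 3894 normalized counts in D6 Sox1+FoxA2+ cells. One of these libraries was higher than any Sox1-FoxA2+ library and the other 2 were between the other populations. The log2 difference from Sox1+FoxA2- cells was 1.31 (adjusted p = 1.00). Yolk-sac endoderm sums in the same 3 libraries were 37735, 108933 and 252084, so the library highest in Dnmt3b was not the one highest in this sum. Most of the sum was Lama1, with a mean of 93525 in this group.

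**Figure D3:**
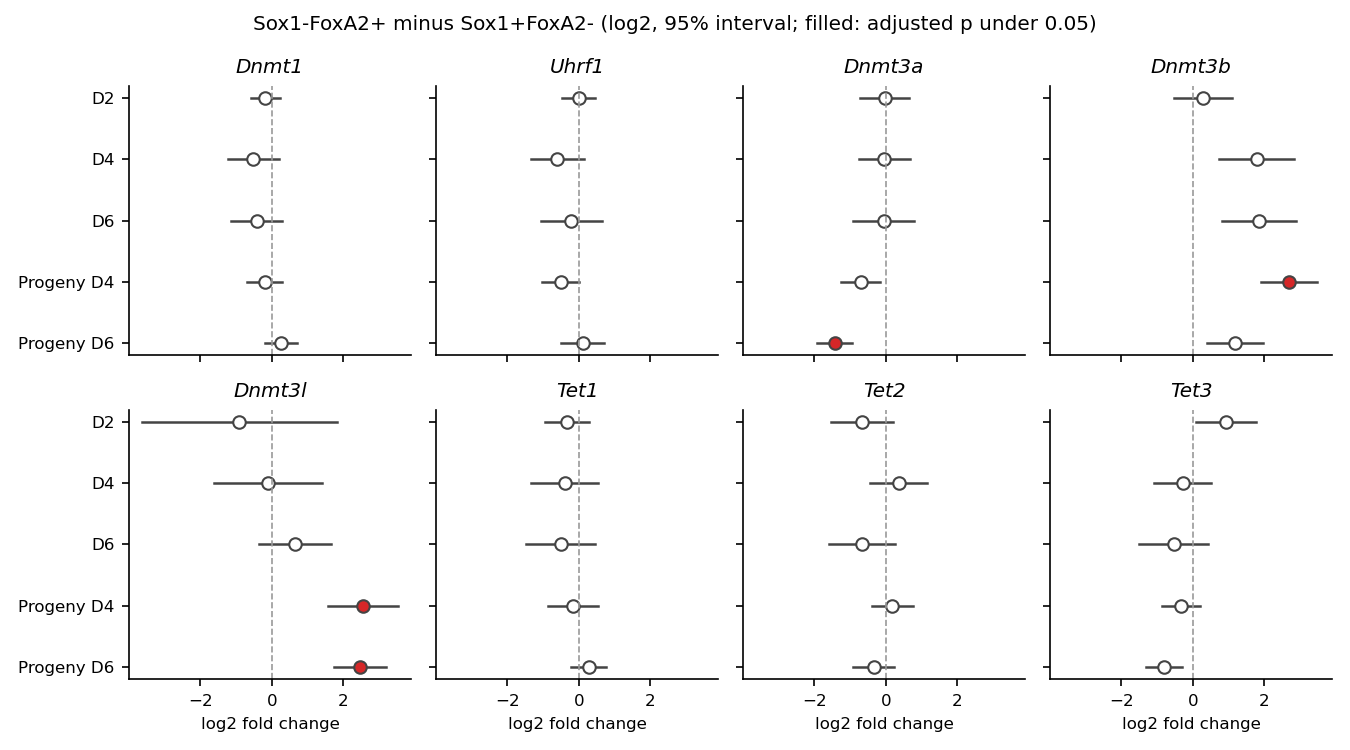
Log2 difference between Sox1-FoxA2+ and Sox1+FoxA2- cells for each gene at D2, D4 and D6 and in D4 and D6 progeny, with 95% intervals. Filled points passed the test. The 4 filled points are Dnmt3b in D4 progeny, Dnmt3l in D4 and D6 progeny and Dnmt3a in D6 progeny.

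In the progeny of cells sorted at D2 and replated, the same pair of populations differed in the de novo genes. At D4, 2 of 8 genes passed the test, both higher in Sox1-FoxA2+ progeny, against 1.97% of all genes. At D6, 1 was higher and 1 lower, against 6.91%. The Sox1-FoxA2+ progeny also carried the endoderm genes, with sums of 170427, 270918 and 198499.8 at D4 and 348831, 721839.8 and 654800.4 at D6, where Sox1+FoxA2- progeny had 3919, 6282 and 5619 and 27438, 27184 and 11553. The part of this lineage difference in the results below was not tested.

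Dnmt3b had 10575, 6811 and 4959.9 normalized counts in D4 Sox1-FoxA2+ progeny and 947, 928 and 1570.0 in D4 Sox1+FoxA2- progeny. The lowest value of the first group was more than that of any library of the second. The difference was 6.49-fold (log2 fold change 2.70, SE 0.374, adjusted p = 3.01e-04), and it passed the test without each of the 9 libraries in turn.

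By D6, Sox1-FoxA2+ progeny had 2018, 2076 and 2469.9 normalized counts of Dnmt3b, all below the D4 libraries of the same population. Sox1+FoxA2- progeny had 409, 941 and 1500.2. The groups still did not overlap. The difference did not pass the test (log2 fold change 1.17, SE 0.366, adjusted p = 0.0739).

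Dnmt3l had 3576, 5108 and 2221 normalized counts in D4 Sox1-FoxA2+ progeny and 830.3, 238 and 872 in Sox1+FoxA2- progeny. It was 5.87-fold higher in the first (log2 fold change 2.55, SE 0.466, adjusted p = 0.00536), with no overlap. Without Sox1+FoxA2- replicate 1 the adjusted p was 0.0549. At D6 the values were 1789, 3813 and 5253 against 587, 704 and 596, also without overlap (log2 fold change 2.46, SE 0.337, adjusted p = 3.24e-04). This call was kept without each of the 9 libraries in turn. The replicate block, which pairs the D4 progeny of these populations, kept both D4 calls and took all calls there from 408 to 885.

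Dnmt3a went the other way. In D6 progeny it had 1916, 3279 and 3049 normalized counts in Sox1-FoxA2+ cells and 7446, 7111 and 6899 in Sox1+FoxA2- cells, with no overlap, and it was lower in the first (log2 fold change -1.43, SE 0.231, adjusted p = 0.00114). The call was kept without each library in turn. At D4 the difference had the same sign and did not pass the test (log2 fold change -0.71, SE 0.258, adjusted p = 0.260).

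The share of Dnmt3b in the summed Dnmt3a and Dnmt3b counts per kilobase was 86.6% ± 2.71 (SD, n = 3) in D4 Sox1-FoxA2+ progeny and 38.6% ± 9.52 in D4 Sox1+FoxA2- progeny. At D6 it was 72.4% ± 5.04 and 28.9% ± 13.2. In sorted cells the shares were 90.1% ± 2.75 and 71.6% ± 1.58 at D6. None of these 3 pairs of groups overlapped. Each had p = 0.1 (exact permutation test, two-sided), the smallest that 3 libraries against 3 allow, and 0.2 after adjustment over the 12 share comparisons.

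Among the other genes in Sox1-FoxA2+ against Sox1+FoxA2- progeny at D6, Tet3 was nearest to the threshold, with 4112, 3855 and 2820.1 normalized counts against 6967, 6726 and 4725. The groups did not overlap (log2 fold change -0.81, SE 0.237, adjusted p = 0.0523). For Tet1 the log2 difference was 0.27 (95% interval -0.21 to 0.75), for Tet2 -0.34 (-0.93 to 0.24), for Dnmt1 0.26 (-0.19 to 0.70) and for Uhrf1 0.11 (-0.49 to 0.71).

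**Figure D4:**
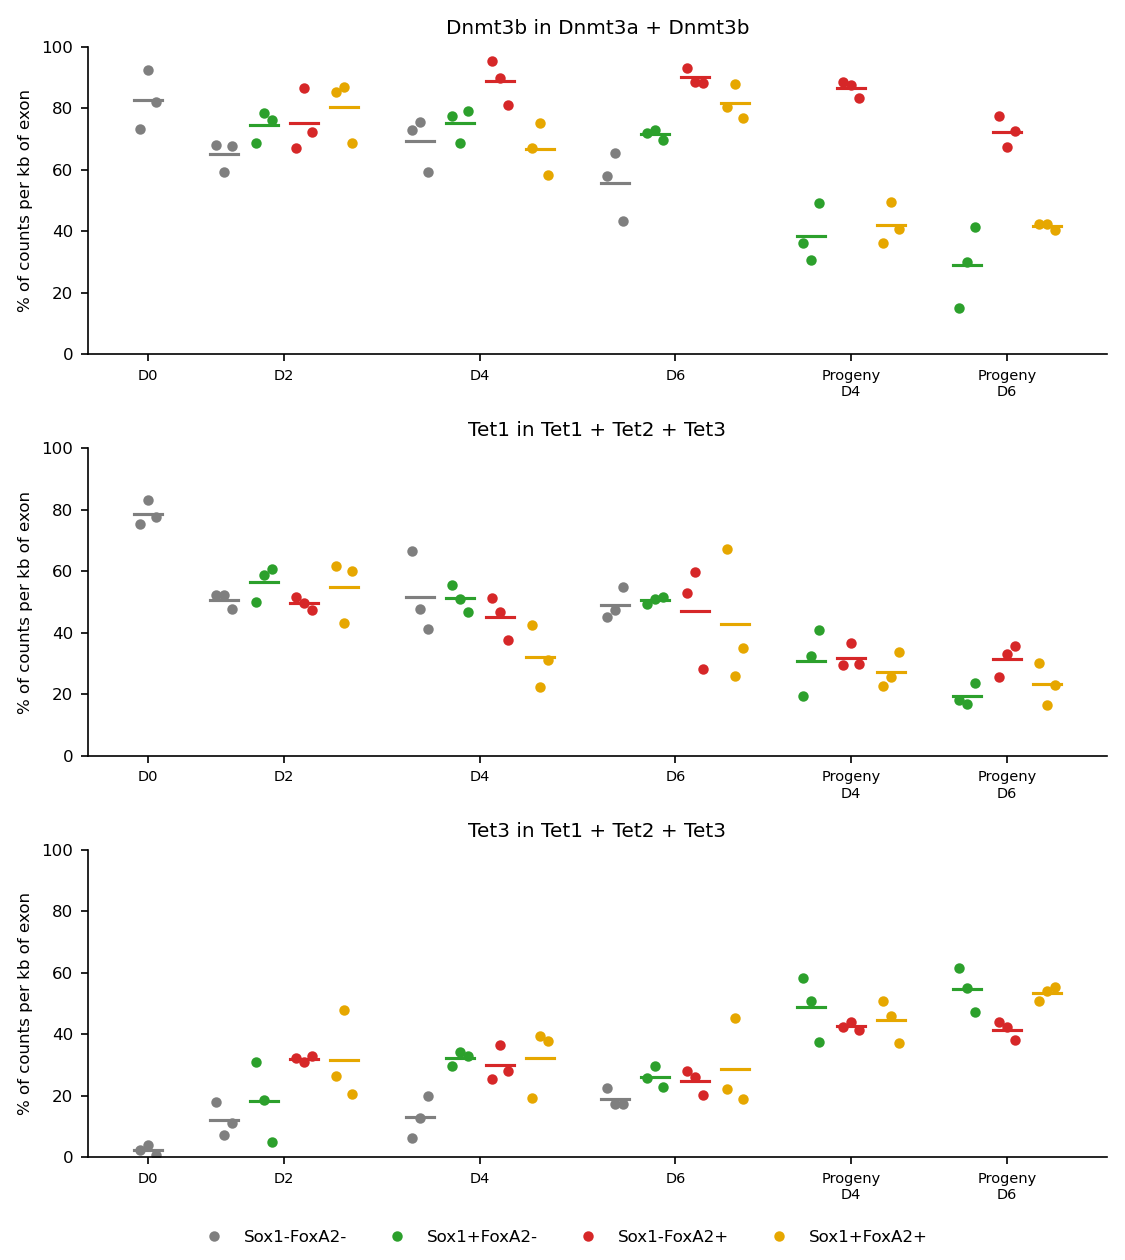
Share of Dnmt3b in Dnmt3a plus Dnmt3b, and of Tet1 and Tet3 in the 3 Tet genes, in percent of normalized counts per kilobase of exon, in each library. Points are libraries and bars are means of 3. Dnmt3b is the larger part of its pair in every Sox1-FoxA2+ library and in every sorted Sox1+FoxA2- and Sox1+FoxA2+ library. It is below 50% in all Sox1+FoxA2- and Sox1+FoxA2+ progeny. In raw counts its mean share in D6 Sox1-FoxA2+ progeny was 44.9%, and in D2 Sox1-FoxA2+ cells 49.92%. For sorted Sox1+FoxA2- cells it was 47.65%, 48.51% and 43.59% at D2, D4 and D6, and for D4 Sox1+FoxA2+ cells 38.83%. The remaining Sox1-FoxA2+ and sorted Sox1+FoxA2+ groups were above 50% in raw counts too.

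Sox1+FoxA2+ progeny were set against both. At D6 none of the 8 genes passed the test against Sox1+FoxA2- progeny (0.18% of all genes). An unadjusted p under 0.05 was found for 3 of the 8 (Dnmt3l, Dnmt3a and Uhrf1) and for 1976 of all 21069 genes tested. Against Sox1-FoxA2+ progeny 1 of 8 passed, which was lower, against 4.63% of all genes. That gene was Dnmt3l, with 1298, 957 and 1443 normalized counts in D6 Sox1+FoxA2+ progeny, all below the Sox1-FoxA2+ libraries (log2 fold change -1.55, SE 0.326, adjusted p = 0.0123). Leaving out Sox1+FoxA2+ replicate 2 ended the call (adjusted p = 0.0713), as did leaving out Sox1-FoxA2+ replicate 3 (adjusted p = 0.0677). Dnmt3a was higher in Sox1+FoxA2+ progeny, with 5860.4, 4787 and 4106 normalized counts and no overlap, just short of the threshold (log2 fold change 0.83, SE 0.228, adjusted p = 0.0524).

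Dnmt1 and Uhrf1 are known to be expressed with genes of DNA replication. Of a list of 12 genes of replication and the cell cycle, 1 was higher and 0 lower in D6 Sox1-FoxA2+ than in Sox1+FoxA2- progeny: Mki67, a marker of cycling cells (1.27, adjusted p = 0.0106). The summed level of the list was 105465, 108022 and 115913 normalized counts in Sox1-FoxA2+ progeny, 53108, 76057 and 78596 in Sox1+FoxA2- and 51285, 59144 and 69388 in Sox1+FoxA2+. The first group was above both others. Mki67 and Top2a, which untangles DNA before division, made up most of the difference between the single-positive groups, with means of 33145 against 13305 and 30309 against 18639. The helicase subunits Mcm6 and Mcm7 had 4825 against 4855 and 5855 against 5921. Uhrf1 had 1674, 3712 and 4191 normalized counts in Sox1+FoxA2+ progeny and 5092, 5759 and 5322 in Sox1-FoxA2+, without overlap and without passing the test (log2 fold change -0.77, SE 0.284, adjusted p = 0.164). For Dnmt1 in the same comparison the log2 difference was -0.63 (adjusted p = 0.117), also with no overlap.

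Progeny were then compared with cells sorted on the same day for the reporters that the D2 parents of the progeny had carried. At D4, 2 of 8 genes passed the test, 1 in each direction, against 6.75% of all genes. At D6, 4 of 8 did, 3 lower and 1 higher, against 12.3%. The same library sets enter the lineage comparisons above.

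At D6, Dnmt3b fell in progeny (log2 fold change -1.93, SE 0.277, adjusted p = 3.09e-05). The sorted libraries of the 3 populations had between 2216 and 13165 normalized counts, and the progeny between 409 and 2470, so the ranges overlapped slightly. At D4 it was also lower (log2 fold change -1.06, SE 0.265, adjusted p = 0.0134), a call lost without D4 Sox1+FoxA2- replicate 3 (adjusted p = 0.0576) and without D4 Sox1-FoxA2+ replicate 1. The difference was not even across populations: the D4 means were 7449 in Sox1-FoxA2+ progeny and 10799.5 in sorted Sox1-FoxA2+ cells, but 1148 and 3294 for Sox1+FoxA2-. Whether the populations differ in this was not tested.

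Markers of cell state moved in the same comparison. At D6, 3 of the 4 ESC markers tested were lower in progeny, Pou5f1 (-4.35), Nanog (-3.64) and Esrrb (-2.79), and 0 were higher. The sum of the list ran from 194 to 2942 normalized counts in progeny and from 1425 to 12944 in the sorted libraries, with Sox2 at 0 in all. Pluripotency genes outside that list went both ways: Klf4 (1.51) and Tbx3 (0.76) were higher, and Tfcp2l1 (-1.58) was lower. Of the neural genes, Nes (2.08) was higher and Pax6 (-2.20) lower. Of 3 fibroblast markers, 1 was higher, the collagen gene Col1a1 (5.62), and 0 were lower, and the sum of the list ran from 7980 to 40615 in progeny and from 328 to 23580 in sorted libraries. That sum does not mark fibroblasts alone. Its gene Pdgfra was higher in sorted Sox1-FoxA2+ than Sox1+FoxA2- cells at D6, with means of 15314 and 250.8. In the same Sox1-FoxA2+ cells Col1a1 had a mean of 29.1. In D6 Sox1-FoxA2+ progeny the means were 18076 for Pdgfra and 2160 for Col1a1. The part of these cell states in the differences of Dnmt3b, Tet1, Tet3 and Uhrf1 was not tested.

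Tet1 was lower in D6 progeny (log2 fold change -1.02, SE 0.250, adjusted p = 0.00650) and Tet3 higher (log2 fold change 0.90, SE 0.214, adjusted p = 0.00505). Tet3 was also higher in D4 progeny (log2 fold change 0.56, SE 0.172, adjusted p = 0.0466), though that call held in only 7 of 18 fits that each left out 1 library. In D6 Sox1+FoxA2- cells, for example, Tet1 had 1894, 1917 and 2201 normalized counts in progeny and 5909, 5045 and 7866 in sorted cells, and Tet3 had 6967, 6726 and 4725 and 3320.0, 3161 and 3753. In this population neither gene's groups overlapped. The D6 calls for Dnmt3b, Tet1 and Tet3 held without each of the 18 libraries in turn.

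Within the Tet genes, Tet1 was the largest part at D0 and Tet3 the largest in all D6 progeny groups by mean. Tet1 made up 19.6% ± 3.63 of the summed Tet counts per kilobase in D6 Sox1+FoxA2- progeny, 31.6% ± 5.32 in Sox1-FoxA2+ and 23.3% ± 6.72 in Sox1+FoxA2+ progeny. Tet3 made up 54.6% ± 7.22, 41.5% ± 2.99 and 53.5% ± 2.47 in the same order. These shares are given as a description, with no test.

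Uhrf1 also fell in D6 progeny against sorted cells (log2 fold change -0.68, SE 0.218, adjusted p = 0.0368), a call that held in 5 of 18 fits with 1 library left out. Between D4 and D6 progeny it fell again (log2 fold change -0.67, SE 0.155, adjusted p = 0.0158), the 1 of 8 genes to pass the test there, against 1.99% of all genes. The call was lost without D6 Sox1+FoxA2- progeny replicate 1 (adjusted p = 0.0508). Uhrf1 had 8427, 10523 and 8409.9 normalized counts in D4 Sox1+FoxA2- progeny and 4293, 4614 and 5650.4 at D6, with no overlap. Sox1-FoxA2+ progeny had 6751, 6979.8 and 5247 and 5092, 5759 and 5322, which overlapped. Dnmt1, the partner of Uhrf1, had a log2 change of -0.21 from D4 to D6 progeny (95% interval -0.47 to 0.05) and of 0.28 from sorted cells to D6 progeny (95% interval -0.05 to 0.61), neither passing the test. Sums of the replication and cell cycle list in D4 progeny were 89338, 114168 and 106081 for Sox1+FoxA2- cells, above the D6 sums given before, and their part in the fall of Uhrf1 was not tested.

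**Figure D5:**
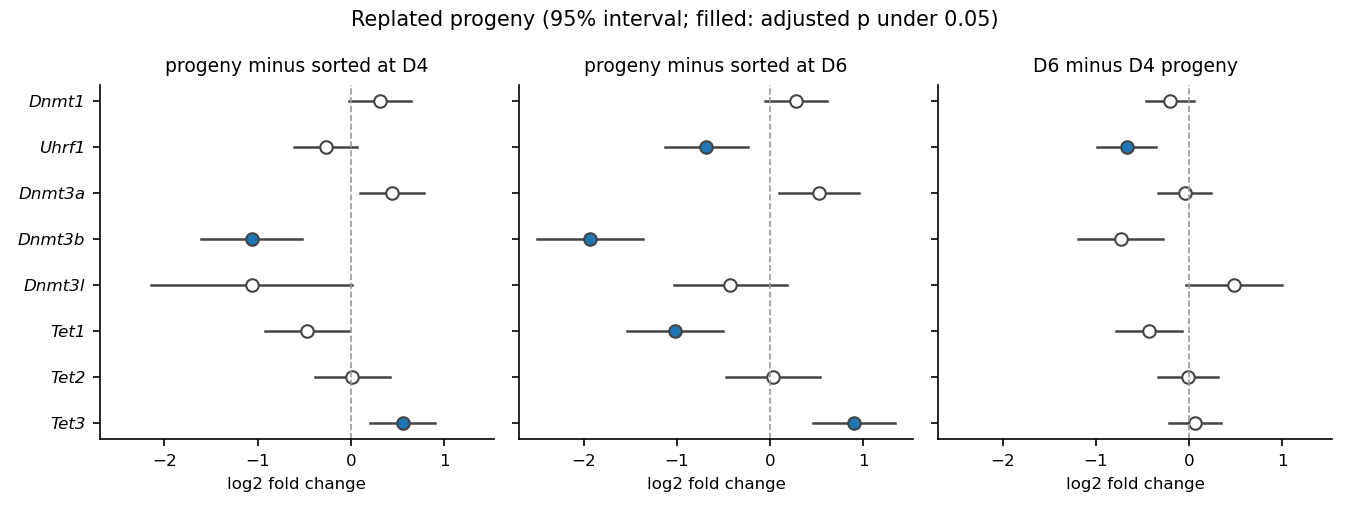
Log2 fold change of each gene between progeny and sorted cells at D4 and D6 and between D6 and D4 progeny, with 95% intervals. Filled points passed the test. Dnmt3b is lower and Tet3 higher in progeny at both days, Tet1 is lower at D6, and Uhrf1 is the 1 filled gene between D4 and D6 progeny.

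Other genes of the pathway were followed as fixed lists. Of 15 partners of demethylation and base repair, 1 fell from D0 to D2 (Parp1, which binds strand breaks, -1.11 on the log2 scale, adjusted p = 0.00477) and 0 rose, near the 4.57% of all genes called. In D6 Sox1-FoxA2+ against Sox1+FoxA2- progeny, of 14 tested, 1 was higher and 2 were lower, against 6.91% of all genes: Lig3, a ligase of base repair (0.89), Smug1, a uracil glycosylase (-1.83), and Apex1, the endonuclease of abasic sites (-1.15). Of the exon bases of Apex1 and Lig3, 61.7% and 25.1% lie inside another gene, so their counts come from the remainder. The median of the list was -0.32 there, against -0.04 over all genes. Tdg, the glycosylase that removes oxidised methylcytosine, had a log2 difference of -0.21 (adjusted p = 0.807).

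Of 10 partners and inhibitors of maintenance, 3 fell from D0 to D2 and 0 rose, against 4.57% of all genes called, with a list median of -0.63 against 0.18 over all genes. They were Dppa3, which blocks Uhrf1 (-4.05), Hells, a remodeller needed for methylation of repeats (-1.06), and the replication clamp Pcna (-1.02). From D2 to D6, 5 fell and 0 rose, against 10.1% of all genes, among them Dppa3 again (-3.40) and Hells (-0.62). In D6 progeny against sorted cells 3 were lower and 1 higher, against 12.3% of all genes: Cdca7 (-1.44) and Cdca7l (-1.91), relatives of which the first recruits Hells, the ligase Lig1 (-0.72) and the histone methyltransferase Ehmt2 (1.31). Part of the exon bases of Cdca7l also lies inside another gene.

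Of 7 proteins that read methylated CG pairs, 4 were higher and 0 lower in D6 progeny than in sorted cells, and 3 and 0 at D4, against 12.3% and 6.75% of all genes called. The list medians were 0.78 and 0.73, against -0.28 and -0.24 over all genes. Those higher at D6 were Mbd1 (1.41), Mbd2 (0.71), Mbd3 (0.78) and Zbtb4 (1.28). Mbd3 is a subunit of the NuRD complex that binds methylated DNA weakly.

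Of 15 targeting factors and regulators, 3 fell from D0 to D2 and 0 rose, against 4.57% of all genes: Prdm14, which represses Dnmt3b and Dnmt3l in naive cells (-5.14), and the imprint-protecting pair Zfp57 (-1.59) and Trim28 (-0.97). Prdm14 had 373, 149 and 678 normalized counts in the D0 libraries, the lowest in replicate 2. In D6 Sox1-FoxA2+ against Sox1+FoxA2- progeny 2 of 14 were lower and 0 higher, against 6.91% of all genes: Cxxc5 (-1.53), a CG-binding protein with 31.7% of its exon bases inside another gene, and Zfp57 (-1.05).

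Germline genes whose promoters are methylated in somatic cells served as a list of 12, of which 10 were tested. Those not tested, Sycp3 and Tuba3a, lie wholly inside another gene, so a lack of counts does not show a lack of RNA. Between the single-positive populations of D6 progeny, 1 was lower on the Sox1-FoxA2+ side, the RNA helicase Ddx4 (-2.38, adjusted p = 0.0101), and 0 were higher, against 6.91% of all genes. The list median was -1.05, against -0.04 over all genes. The summed level was 1864, 1885 and 2035 normalized counts in Sox1-FoxA2+ progeny and 5149, 4654 and 4578 in Sox1+FoxA2- progeny, which did not overlap. Ddx4 alone, with means of 525 and 2597, made up most of that difference, and Taf7l had 388 and 245, the other way. Against Sox1+FoxA2+ progeny, Sox1-FoxA2+ progeny had less Ddx4 and Dazl, which were higher in Sox1+FoxA2+ cells by 2.37 and 3.55 on the log2 scale. In that comparison 4.63% of all genes were called.

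From D0 to D2, 5 of 7 naive pluripotency genes fell and 0 rose, against 4.57% of all genes, in the same comparison in which Tet1, Tet2 and Dnmt3l fell. Of the 12 replication and cell cycle genes 2 fell (Ccne1 and Mcm2) and 1 rose (Mki67), while Dnmt1 and Uhrf1 did not pass the test.

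For each of the 8, the genes whose means over the 19 conditions ran most like it were found among 13922 genes, by Pearson's r of log2 means. Tet1 ran most like Hells (r = 0.959), the remodeller named above. Uhrf1 ran most like the linker histone genes Hist1h1d (0.961) and Hist1h1b (0.933), Tet2 like Ttc39b (0.903) and Fgf4 (0.890), and Tet3 like Usp25 (0.928). Dnmt3b ran most like Ppat (0.859) and Sall4 (0.847), Dnmt3l like Zscan10 (0.867), Dnmt3a like Adss (0.829) and Dnmt1 like Lmnb2 (0.766). Between members the largest value was -0.793, for Tet1 and Tet3, followed by 0.764 for Uhrf1 and Tet1 and -0.751 for Dnmt3b and Tet3. These are descriptions over conditions that share days, media and, for each replicate number, possibly handling.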

How the data were processed

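Libraries were made from RNA of sorted cells, or of unsorted progeny of cells sorted at D2, with a SMART-Seq Stranded kit. Per the study's methods and notes, the authors aligned reads with STAR, and featureCounts gave a number per gene of GENCODE M21 (GRCm38), by the values over whole gene spans and both strands; tool versions and the strand setting are not given in the sources used here. The deposited values are raw counts; 92 lines without a gene name, all at 0, were not used. The 8 genes, the lists and the tests were chosen with earlier results of these data known.

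Tests across genes used edgeR 4.0.16 (quasi-likelihood, TMM, filterByExpr with minimum count 10 and total 15, prior count 0.125) in R 4.3.3. Populations of a day and arm were fitted together, time over the 39 sorted or 18 progeny libraries, and progeny against sorted in 3 matched populations. An adjusted p under 0.05 over all genes tested (Benjamini-Hochberg, two-sided) was called. Levels are DESeq2 1.42.0 normalized counts. The fits were tested on simulated counts, where unchanged low-count genes of high spread were called more often than the threshold allows between D0 and D2. Replicates are numbered in the labels and biological per the study's figure legends, and p-values measure the spread between them. For shares at D2 against D0 they also take in differences between populations.

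Replicate numbers were taken to pair 2 groups where all 3 correlations of deviations exceeded 0.1: Sox1-FoxA2+ and Sox1+FoxA2- at D4 (0.204 to 0.505), at D6 (0.123 to 0.198) and in D4 progeny (0.275 to 0.557), Sox1+FoxA2+ and Sox1+FoxA2- at D6 (0.114 to 0.244), and Sox1+FoxA2+ and Sox1-FoxA2+ in D6 progeny (0.116 to 0.371). Alternatives were DESeq2's Wald test and size factors, no filter, the replicate block, fewer libraries in the fit, each library left out in turn and, for shares, raw counts or, added after the data were seen, counts per gene span. Genes named are the 8, called list genes, and the 2 most like each. Microscopy and other assays were not analysed here.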

Additional observations from a re-analysis of the deposited data

Results flagged for a closer look

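These are genes whose libraries at the later day all lay on one side of the earlier mean in one population and all on the other side in another. Values are log2 changes of group means, and apart from the 2 tests named here these differences were not tested.

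From D2 to D6, the log2 change of Dnmt3b was -0.46 in Sox1+FoxA2- cells, against 0.955 where FoxA2 alone (Sox1-FoxA2+) and 0.922 where both reporters were expressed. The test of the difference between the first 2 gave 1.58 on the log2 scale (SE 1.06, edgeR adjusted p = 0.764). The value of 0.922 rested on replicate 2 of D6 Sox1+FoxA2+ cells. That group had a mean of 6938 and an SD of 5394, against a D2 mean of 3662. Its replicate 1 had no Foxa2 counts, as given above. Over the same days Tet3 had 0.679 in Sox1+FoxA2- cells but -0.983 where FoxA2 alone was expressed, with a difference of -1.44 (SE 0.648, adjusted p = 0.561).

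From D4 to D6 progeny, Dnmt3a had 0.283 in Sox1+FoxA2- progeny against -0.38 in Sox1-FoxA2+ progeny. For Dnmt1 the value was -0.387 in Sox1+FoxA2- progeny, -0.347 in Sox1+FoxA2+ progeny and 0.137 in Sox1-FoxA2+ progeny. Tet2 had 0.489 in Sox1+FoxA2- progeny against -0.512 in Sox1+FoxA2+ progeny.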

How the results depend on the processing

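Of 89 values of the 18 called gene and comparison pairs under alternatives that keep all replicates, 80 stayed past the threshold and 9 did not, and 0 of all values computed changed sign with a call. With 1 library left out, 369 of 405 stayed. The number of the 8 genes that passed the test changed as follows. From D0 to D2 it was 0 in place of 6 in Sox1-FoxA2- cells only. From D2 to D6 it was 2 in place of 0 with no filter on low counts (Tet1 and Dnmt3l) and with the replicate block (Dnmt1 and Uhrf1), where 2 of 16 pairs of conditions met the criterion for pairing. For Sox1-FoxA2+ against Sox1+FoxA2- cells it was 1 in place of 0 at D4 with no filter, and 1 in place of 0 at D6 with DESeq2's Wald test, no filter, only the 2 groups or the replicate block (paired libraries, Dnmt3b). In D6 progeny it was 4 in place of 2 with the Wald test or no filter, for Sox1+FoxA2+ against Sox1-FoxA2+ progeny 3 in place of 1 with the same, and from D4 to D6 progeny 2 in place of 1 with the same. Progeny against sorted at D4 gave 1 in place of 2 with DESeq2 size factors. The cause was not tested. The replicate block changed no other call of the 8 genes in the paired comparisons; in D6 progeny of Sox1-FoxA2+ and Sox1+FoxA2- cells, which the numbers did not pair, Tet3 passed with it (-0.81 (adjusted p = 0.0270)).

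With 1 library left out, the number ranged from 3 to 6 for D0 to D2, 0 to 1 for D2 to D6, 0 to 1 for Sox1-FoxA2+ against Sox1+FoxA2- at D4 and at D6, 1 to 2 in D4 and 2 to 4 in D6 progeny, 0 to 1 for Sox1+FoxA2+ against Sox1-FoxA2+ at D6 and 0 to 2 in D6 progeny, 0 to 2 and 3 to 4 for progeny against sorted at D4 and D6, and 0 to 2 for D4 to D6 progeny; the others stayed at 0. In raw counts in place of counts per kilobase, the Dnmt3b share differed between Sox1-FoxA2+ and Sox1+FoxA2- cells by 23.8 points at D4 (13.7 per kilobase), 30.2 at D6 (18.5) and 33.4 in D6 progeny (43.5). Per kilobase of gene span, an alternative chosen after seeing the data, the 12 share differences kept their direction and their side of the threshold, with 20.2 points for Dnmt3b at D6 and 49.5 in D4 progeny.

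Over all genes the Wald test called more in every comparison, such as 4752 against 1290 from D0 to D2 and 2094 against 319 for the 2 populations at D6. Size factors in place of TMM shifted log2 values by 0.21 from D2 to D6, 0.20 for Sox1+FoxA2+ against Sox1-FoxA2+ at D6, -0.14 for the difference of changes, -0.12 for the 2 populations at D6 and -0.13 for progeny against sorted at D6. The share of calls that were higher moved with it, from 68.8% to 87.8% from D2 to D6, from 86.2% to 75.8% for the difference of changes, from 72.7% to 90.5% for Sox1+FoxA2+ against Sox1-FoxA2+ at D6, and from 50.3% to 1220 of 3127 calls for progeny against sorted at D6. Levels on TMM-scaled counts moved by less than 1 SD in 139 of 152 cases. With 3 libraries a group, some differences without overlap, such as that of Dnmt3b at D4, did not pass the test, and a missing call does not show that levels are equal.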
